A study of Danio rerio with 12 samples.

Results

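The genes described here act in or control the uptake of fat from the blood, its activation, its storage and its release. They were chosen by name and are angptl4, lpl, cd36, acsl1a, acsl1b, pnpla2, lipea, lipeb, mgll and plin2, 10 of the 25281 genes in the deposited expression table. All 10 were found in it by their symbol, and 9 had enough reads for the main test, with cd36 the exception.

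Wild type zebrafish were used throughout, 2 to 3 months old by the labels, while the study's methods give fish bought at 3 months of age and then kept for more than a month. Fast fish had gone 24 h without food, and Refed_3h and Refed_8h fish went through the same fast and were then sampled 3 h and 8 h after a new meal. Each group held 4 separate fish, 2 of each sex by the methods, and the tail muscle of each, taken behind the anus, gave 1 poly(A) RNA library, in all 12 with 11929140 to 18446239 counts. The methods describe the fish as kept together in a small tank and give no repeat of the feeding. As described, the 4 fish of a group shared the same feeding and sampling, so differences between such events are not covered. The groups were killed at different times, so feeding state and time of day cannot be told apart, and no fish without a fast was included.

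Triglyceride in blood lipoproteins is split by lipoprotein lipase at the capillary wall, and the fatty acids that come free are taken up and joined to coenzyme A before they can be burned or stored. Angptl4 is secreted and blocks lipoprotein lipase, and in mammals it is known as a gene that fasting induces. Inside the cell, stored triglyceride is broken down in steps by adipose triglyceride lipase, hormone-sensitive lipase and monoglyceride lipase at the surface of the lipid droplet, which perilipins coat.

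The samples were muscle by their markers. All 27 skeletal muscle markers found in the table had counts, and their sum was 89271 to 111418 TPM in Fast, 99287 to 131491 TPM in Refed_3h fish and 99360 to 133747 TPM in Refed_8h. TPM, the transcripts of a gene relative to all transcripts of a library, takes gene length into account. Genes of other tissues were present too. The sum of 24 skin epithelium markers was 22849 to 26226 TPM in Fast, 12824 to 22197 TPM in Refed_3h fish and 11676 to 21745 TPM in Refed_8h, lower in every refed fish than in every Fast fish. Of this sum, krt5 and krt91 made up 67.6%. The exact permutation p was 0.029 for each refed group against Fast, the smallest that 4 fish against 4 allow, and 0.10 after adjustment over 21 such tests. In bulk tissue, fewer cells of a type and less RNA per cell cannot be told apart. Counts were scaled by TMM, a method that sets most genes equal between libraries, and the test was edgeR's quasi-likelihood test. A gene was taken as changed at a Benjamini-Hochberg adjusted p under 0.05 over 16745 tested genes, and as a DEG when it also changed at least 2-fold. By this test 1 of the 24 skin markers fell in Refed_3h vs Fast and 1 in Refed_8h vs Fast, against 2.63% and 0.854% of all genes. Their median log2 fold changes were -0.39 and -0.65. Of 26 muscle markers tested, 4 rose in Refed_3h vs Fast, against 2.28% of all genes, with a median of 0.60.

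Of the 2 genes whose products act at the blood vessel, angptl4 changed in both comparisons that involve Refed_3h, and no change of lpl passed the test. Angptl4 (ENSDARG00000035859, GRCz11 chromosome 2, 24536762 to 24542518, plus strand) was at 59.5, 95.2, 39.3 and 42.0 TPM in the 4 Fast fish. It was at 14.4, 11.6, 12.2 and 13.1 TPM in the Refed_3h fish and at 55.5, 45.9, 38.3 and 48.2 TPM in the Refed_8h fish. The lowest Fast fish and the lowest Refed_8h fish both lay far above the highest Refed_3h fish, while Fast and Refed_8h overlapped. The means were 59.0 ± 25.8 TPM, 12.8 ± 1.19 TPM and 47.0 ± 7.11 TPM in Fast, Refed_3h and Refed_8h (SD, n = 4). Refed_3h fish were thus close to one another, and the spread in Fast came mostly from replicate 2.

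Angptl4 fell in Refed_3h to 0.274 times its level in Fast, or -1.87 on the log2 scale (SE 0.28, 95% interval -2.47 to -1.27, edgeR adjusted p = 0.0030). It was higher in Refed_8h than in Refed_3h by 3.05-fold, or 1.61 on the log2 scale (SE 0.28, 95% interval 1.01 to 2.20, edgeR adjusted p = 0.0052). Between Refed_8h and Fast the log2 fold change was -0.26 (95% interval -0.84 to 0.32, edgeR adjusted p = 0.74), so a fall to about 0.56 times or a rise to 1.25 times the level in Fast is still allowed. Both calls use the same Refed_3h fish and are not independent of each other. Without Fast replicate 2 the log2 fold change of Refed_3h vs Fast was -1.43 (edgeR adjusted p = 0.00095). With the skin marker sum of each fish as a covariate it was -1.91, but the edgeR adjusted p was 0.059, past the threshold. With the adipocyte marker sum as a covariate it was -1.84 (edgeR adjusted p = 0.012).

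Lpl (ENSDARG00000087697, chromosome 22, 15624371 to 15630421, plus strand), which encodes lipoprotein lipase itself, was at 23.9, 21.3, 48.9 and 23.5 TPM in Fast. It was at 57.2, 22.1, 24.5 and 24.2 TPM in Refed_3h and at 23.8, 20.02, 35.4 and 28.4 TPM in Refed_8h. The highest fish of Fast and the highest of Refed_3h stood apart from their groups, and the other fish lay between 20.02 and 35.4 TPM. The log2 fold changes were 0.48 in Refed_3h vs Fast (95% interval -0.29 to 1.25, edgeR adjusted p = 0.44), -0.02 in Refed_8h vs Fast (-0.79 to 0.75, adjusted p = 0.99) and -0.50 in Refed_8h vs Refed_3h (-1.27 to 0.27, adjusted p = 0.45). No change of lpl passed the test, and its intervals still allow changes of 2-fold in either of the comparisons with Refed_3h. Without Fast replicate 3 and Refed_3h replicate 1, the fish that stood apart, the log2 fold changes were 0.41, 0.34 and -0.06 in the same order.

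The TPM of angptl4 relative to that of lpl in the same fish was 0.804 to 4.47 in Fast (median 2.14), 0.251 to 0.541 in the Refed_3h fish (median 0.511) and 1.08 to 2.33 in Refed_8h (median 1.99). In 3 of 4 Fast fish and in all Refed_8h fish the TPM of angptl4 was above that of lpl, and in all Refed_3h fish it was below. These ratios are descriptions without a test, and say nothing of the amounts of protein.

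**Figure D1:**
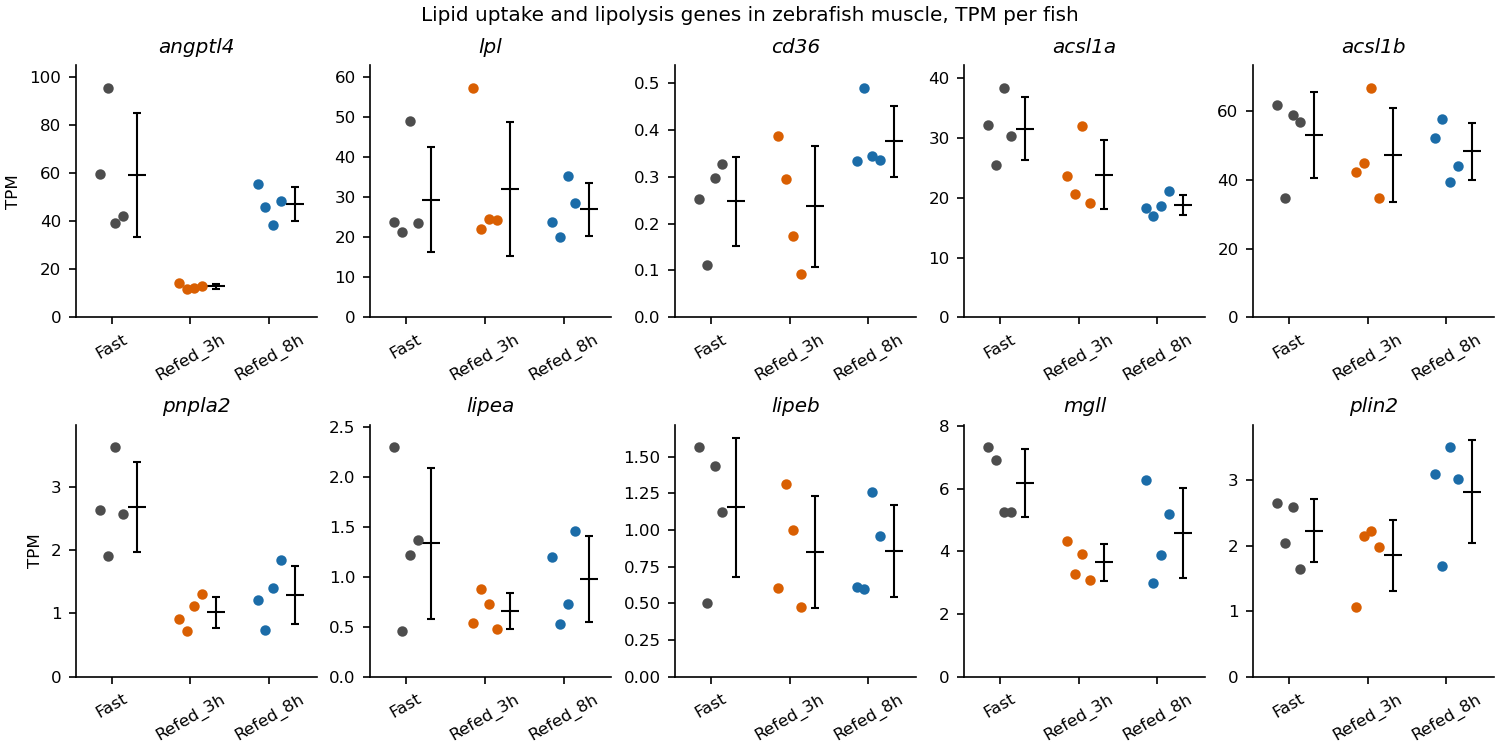
TPM of the 10 lipid genes (vertical axes, each from 0) in the 4 fish of Fast, Refed_3h and Refed_8h; points are fish in order of replicate number, and the bar beside them is the mean with its SD. The 4 Refed_3h fish have angptl4 levels of 11.6 to 14.4 TPM, below every other fish, and lpl has 1 high fish in Fast and 1 in Refed_3h.

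For uptake through the cell membrane, cd36 (ENSDARG00000032639, chromosome 4, 22658472 to 22671469, minus strand), a receptor for fatty acids in mammalian muscle, was barely present. It had 4, 2, 4 and 6 counts in Fast, 7, 6, 3 and 2 counts in Refed_3h and 6, 9, 6 and 7 counts in Refed_8h, or 0.0926 to 0.489 TPM over the 12 fish. The 4 Refed_8h fish had 0.334 to 0.489 TPM, against 0.112 to 0.327 TPM in the 4 Fast fish. These levels did not overlap, but the nearest fish, Fast replicate 4 at 0.327 TPM and Refed_8h replicate 1 at 0.334 TPM, had 6 counts each. With so few counts the gene failed the filter on low counts and was left out of the main test. The fits without a filter on low values took it in, DESeq2 was given it, and none called it in any comparison. DESeq2 can set genes of low counts aside before adjustment, so its lack of a call may be no test of cd36. At this depth a change of cd36 could easily be missed.

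The long-chain acyl-CoA synthetases, which trap fatty acids in the cell by joining them to coenzyme A, were far more abundant. Acsl1a (ENSDARG00000030514, chromosome 1, 17537451 to 17587552, minus strand) was at 32.1, 25.5, 38.3 and 30.3 TPM in Fast. It was at 23.7, 20.6, 32.1 and 19.1 TPM in Refed_3h and at 18.3, 17.0, 18.6 and 21.1 TPM in Refed_8h. Every Refed_8h fish was below every Fast fish, and Refed_3h overlapped both. Acsl1a fell in Refed_8h relative to Refed_3h, with a log2 fold change at -0.58 (SE 0.16, 95% interval -0.93 to -0.23, edgeR adjusted p = 0.0496), just inside the threshold. The log2 fold change of Refed_8h vs Fast was slightly larger at -0.64 (SE 0.16, 95% interval -0.99 to -0.29) but its edgeR adjusted p was 0.080. In Refed_3h vs Fast the log2 fold change was -0.06 (edgeR adjusted p = 0.86), and -0.42 to 0.11 over the 23 alternatives. By mean TPM, 31.6, 23.9 and 18.8 in Fast, Refed_3h and Refed_8h, Refed_3h lay between the others. How much of the fall was present at 3 h thus depends on the scaling.

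Both acsl1a values lay close to the threshold. The call in Refed_8h vs Refed_3h was lost in 16 of 23 alternative settings. Among them was the removal of any 1 fish other than Fast replicate 3 or Refed_3h replicate 2 (edgeR adjusted p up to 0.13), although over the removal of each fish in turn the log2 fold change stayed between -0.69 and -0.45. With limma on log2(TPM + 1) it was -0.31 (adjusted p = 0.32). Over all genes, the removal of 1 fish gave 459 to 1168 calls in this comparison, against 1074 with all fish. For Refed_8h vs Fast, DESeq2 gave an adjusted p of 0.0084 with the same log2 fold change of -0.64.

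Its paralog acsl1b (ENSDARG00000003854, chromosome 14, 937194 to 970853, minus strand) was at 61.8, 34.7, 59.0 and 56.8 TPM in Fast, 42.2, 45.0, 66.7 and 34.8 TPM in the Refed_3h fish and 52.3, 57.8, 39.3 and 44.0 TPM in Refed_8h. All groups overlapped. Its log2 fold changes were 0.18, -0.0037 and -0.18 in Refed_3h vs Fast, Refed_8h vs Fast and Refed_8h vs Refed_3h, with 95% intervals from -0.63 to 0.62 over the 3 comparisons and no edgeR adjusted p under 0.63. The TPM of acsl1b relative to acsl1a had a median of 1.71 in Fast, 1.95 in Refed_3h and 2.48 in Refed_8h. How reads that match both copies were counted is not given in the sources used here, so the split between the paralogs is uncertain. The same holds for lipea and lipeb and for the paralogs named further on.

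Among the enzymes that empty the lipid droplet, the lipase of the first step showed the clearest separation between fish. Pnpla2 (ENSDARG00000089390, chromosome 25, 4541211 to 4574570, plus strand), which encodes adipose triglyceride lipase, was at 2.63, 1.90, 3.63 and 2.58 TPM in Fast. It was at 0.92, 0.72, 1.12 and 1.305 TPM in Refed_3h and at 1.21, 0.73, 1.40 and 1.85 TPM in Refed_8h. Every refed fish of both times lay below every Fast fish, and the refed groups overlapped. The log2 fold change was -1.01 in Refed_3h vs Fast (SE 0.31, 95% interval -1.68 to -0.35, edgeR adjusted p = 0.074) and -0.95 in Refed_8h vs Fast (SE 0.31, 95% interval -1.61 to -0.29, edgeR adjusted p = 0.18). Neither passed the threshold over all genes. Counts were low, 21 to 76 per fish. In Refed_3h vs Fast the gene did pass with DESeq2 (adjusted p = 0.025) and with limma on log2(TPM + 1) (adjusted p = 0.022), where the log2 fold change was -0.86 on a scale whose median over all genes was itself at -0.26.

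Lipea (ENSDARG00000063037, chromosome 19, 10794072 to 10826715, plus strand) and lipeb (ENSDARG00000101145, chromosome 16, 26081481 to 26132122, minus strand) are the 2 zebrafish copies of hormone-sensitive lipase, which acts on diglyceride. Lipea ranged from 0.457 to 2.29 TPM in Fast, from 0.480 to 0.874 TPM in the Refed_3h fish and from 0.523 to 1.46 TPM in Refed_8h. Lipeb ranged from 0.501 to 1.56 TPM in Fast, from 0.477 to 1.32 TPM in the Refed_3h fish and from 0.598 to 1.26 TPM in Refed_8h. Both overlapped between all groups, and with 11 to 49 counts per fish their intervals were wide. The log2 fold change of Refed_3h vs Fast was -0.64 for lipea (95% interval -1.49 to 0.21, edgeR adjusted p = 0.35) and -0.09 for lipeb (-0.92 to 0.74, adjusted p = 0.91). In the other comparisons the 2 genes had log2 fold changes between -0.33 and 0.31, with edgeR adjusted p of 0.70 to 0.83.

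Mgll (ENSDARG00000036820, chromosome 8, 26292560 to 26326501, plus strand), monoglyceride lipase of the last step, was at 7.32, 6.91, 5.26 and 5.26 TPM in Fast. It was at 4.32, 3.26, 3.93 and 3.07 TPM in Refed_3h and at 6.26, 3.00, 3.88 and 5.18 TPM in Refed_8h. All 4 Refed_3h fish were below all 4 Fast fish on this scale, and Refed_8h spanned both. After TMM scaling the log2 fold change of Refed_3h vs Fast was -0.41 (SE 0.18, 95% interval -0.81 to -0.02, edgeR adjusted p = 0.20), that of Refed_8h vs Fast was -0.36 (adjusted p = 0.43) and that of Refed_8h vs Refed_3h was 0.05 (adjusted p = 0.90). No change of mgll passed the test.

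Plin2 (ENSDARG00000042332, chromosome 15, 17030473 to 17048822, plus strand), the perilipin that coats droplets in most cells, was at 2.65, 2.05, 2.59 and 1.64 TPM in Fast. It was at 1.06, 2.15, 2.23 and 1.99 TPM in Refed_3h and at 3.10, 1.69, 3.50 and 3.03 TPM in Refed_8h. The 3 highest fish were of Refed_8h, but the fourth Refed_8h fish lay among the others. The log2 fold changes were 0.10 in Refed_3h vs Fast (edgeR adjusted p = 0.86), 0.45 in Refed_8h vs Fast (95% interval -0.16 to 1.05, adjusted p = 0.54) and 0.35 in Refed_8h vs Refed_3h (adjusted p = 0.51).

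**Figure D2:**
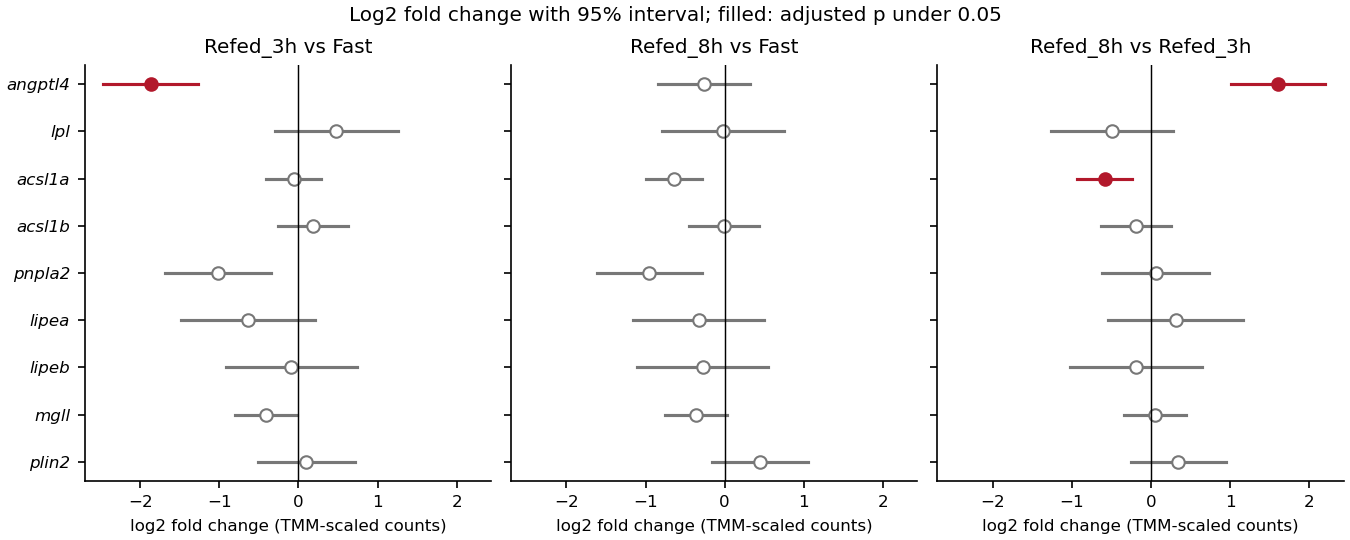
Log2 fold change of counts scaled by TMM (horizontal axis, 0 marked by a line) of the 9 tested lipid genes in the 3 comparisons; lines are 95% intervals and filled red points passed an adjusted p under 0.05. Angptl4 lies at -1.87 and 1.61 in the comparisons that involve Refed_3h, acsl1a at -0.58 in Refed_8h vs Refed_3h, and no point is filled in Refed_8h vs Fast.

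Counted together, 1 of the 9 tested genes fell and none rose in Refed_3h vs Fast, where 4.90% of all tested genes changed, 2.28% higher and 2.63% lower. That gene, angptl4, was also the only DEG, against 2.07% of all genes. In Refed_8h vs Fast none of the 9 changed by edgeR, against 1.40% of all genes (0.543% higher and 0.854% lower), and none was a DEG, against 0.985%. There, 2 of the 9 (acsl1a and pnpla2) had an unadjusted edgeR p under 0.05, against 2169 of all 16745 genes. In Refed_3h vs Fast these counts were 3 and 3828, and in Refed_8h vs Refed_3h they were 2 and 3750. For Refed_8h vs Fast, DESeq2 called 1 of the lipid genes, and 654 over all genes, against 234 by edgeR. In Refed_8h vs Refed_3h 2 of the 9 changed, angptl4 higher and acsl1a lower, against 6.41% of all genes (3.06% higher and 3.36% lower), and 1 was a DEG, against 2.78%. With 9 genes, such counts are too small to set the group apart from other genes. The median log2 fold change of the 9 was -0.09, -0.28 and 0.05 in the 3 comparisons, and that of all tested genes was -0.01, 0.00 and 0.01.

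The fish of 2 groups did not overlap in TPM for 3 of the 10 genes in Refed_3h vs Fast (angptl4, pnpla2 and mgll, all lower), against 17.5% of all tested genes. This held in Refed_8h vs Fast for 2 of the 9 tested genes, pnpla2 and acsl1a, both lower, against 6.34%. It also held there for cd36, higher, which is not among the tested genes behind that share. In Refed_8h vs Refed_3h it held for angptl4 alone, against 13.8%. All genes together had a median shift of -0.26, -0.08 and 0.18 in these comparisons by limma on log2(TPM + 1), so a lower TPM in Refed_3h was shared by genes in general.

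By level, the genes fell into an abundant set (angptl4, lpl, acsl1a and acsl1b) and a scarce one (mgll, pnpla2, plin2, lipea, lipeb and cd36), and no fish had a scarce gene above an abundant one. In Fast angptl4 had the highest mean, ahead of acsl1b, acsl1a and lpl, though each of these neighbours overlapped in range. In Refed_3h angptl4 was at rank 4, behind acsl1b, lpl and acsl1a, and did not overlap with acsl1a above it or mgll below it. In Refed_8h it was at rank 2, overlapping with acsl1b above it but not with lpl below it. Cd36 was last in every group, without overlap with its neighbour.

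The genes whose profile over the 12 fish was most like that of angptl4 were not lipid enzymes. By Pearson's r of log2 CPM they included klf11b (0.964), ctns (0.946), rxrgb (0.939) and asphd2 (0.931), where the n of 12 takes in 3 groups that differ in level. Klf11b encodes a zinc finger transcription factor, ctns the lysosomal cystine transporter and rxrgb a retinoid X receptor. Klf11b was at 59.7 ± 19.6 TPM in Fast, 5.78 ± 0.842 TPM in the Refed_3h fish and 46.5 ± 8.16 TPM in Refed_8h (SD, n = 4). Its log2 fold change was -3.05 in Refed_3h vs Fast (edgeR adjusted p = 3.2e-05) and 2.77 in Refed_8h vs Refed_3h (edgeR adjusted p = 4.8e-05). Rxrgb was at 5.33 ± 0.218, 1.45 ± 0.190 and 4.61 ± 0.782 TPM in Fast, Refed_3h and Refed_8h (SD, n = 4). These genes were picked for their likeness to angptl4, so their own low levels in Refed_3h add no support to it. Of the lipid genes, mgll had the highest r with angptl4 at 0.55, followed by pnpla2 at 0.37, and acsl1b the lowest at -0.46.

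**Figure D3:**
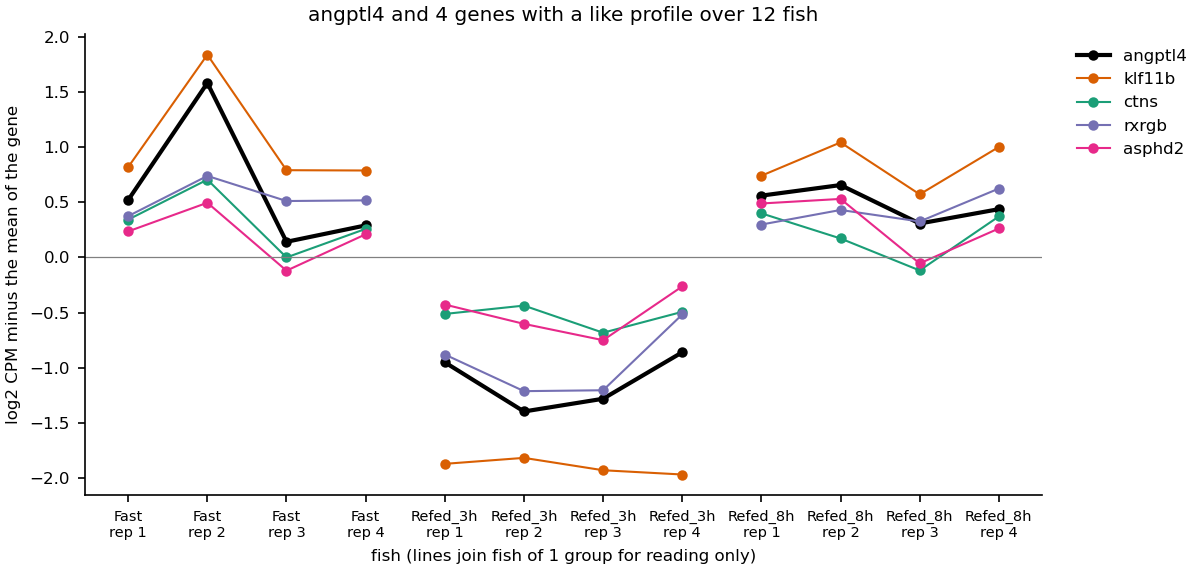
Log2 CPM (counts per library total after TMM scaling) of angptl4 and 4 genes among those with the highest Pearson's r with it, each minus its own mean over the 12 fish (vertical axis), in each fish (horizontal axis). All 5 genes are below their mean in the 4 Refed_3h fish. Angptl4, klf11b, ctns and rxrgb are highest in Fast replicate 2, and asphd2 is not.

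Other genes came from 4 lists made for the same pathways, 109 genes in all, of which 92 were in the table and 74 were tested. In Refed_3h vs Fast 2 of the 74 rose and none fell, against 2.28% and 2.63% of all tested genes. In Refed_8h vs Fast 2 rose and 2 fell, against 0.543% and 0.854%, and in Refed_8h vs Refed_3h 1 rose and 8 fell, against 3.06% and 3.36%. The DEGs among them were 2, 3 and 5, against 2.07%, 0.985% and 2.78% of all genes. Their median log2 fold change was 0.17, -0.03 and -0.16 in the same order, and that of all tested genes was -0.01, 0.00 and 0.01. Not every listed gene acts in these pathways. The 2 that fell in Refed_8h vs Fast were scarb2a and angptl7. Both, with acbd3 and angptl1a, were among the 8 that fell in Refed_8h vs Refed_3h. As given below, none of these is a carrier of fatty acids into the cell or a known blocker of lipoprotein lipase.

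The list for control of lipolysis held 18 tested genes, and its only called gene against Fast at either time was g0s2, which encodes an inhibitor that binds adipose triglyceride lipase in mammals. G0s2 was at 35.1, 59.7, 49.4 and 40.1 TPM in Fast, 144, 94.9, 78.3 and 81.6 TPM in the Refed_3h fish and 114, 141.5, 143 and 77.7 TPM in Refed_8h. Every refed fish was above every Fast fish. The gene rose in Refed_3h vs Fast by a log2 fold change of 1.44 (SE 0.30, edgeR adjusted p = 0.021) and in Refed_8h vs Fast by 1.48 (SE 0.30, edgeR adjusted p = 0.030). Refed_8h and Refed_3h differed by a log2 fold change of 0.04 (95% interval -0.60 to 0.68, edgeR adjusted p = 0.96). The TPM of g0s2 relative to pnpla2 in the same fish had a median of 14.6 in Fast (13.3 to 31.4), 100.6 in Refed_3h (62.5 to 157) and 98.1 in Refed_8h (42.1 to 194). This ratio, a description without a test, was higher in all 8 refed fish than in any Fast fish. That follows from the levels already given, since every refed fish had more g0s2 and less pnpla2 than every Fast fish.

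The size of the rise of g0s2 moved little with single fish, but its calls lay near the threshold. The one in Refed_3h vs Fast was lost without Fast replicate 1 (edgeR adjusted p = 0.064), Fast replicate 4 (0.057) or Refed_3h replicate 1 (0.064), and with the skin marker sum as a covariate (0.19), while the log2 fold change stayed between 1.08 and 1.66 over all alternatives. The one in Refed_8h vs Fast was lost without any 1 of Fast replicates 1, 3 and 4 and Refed_8h replicates 2 and 3 (edgeR adjusted p of 0.069 to 0.088) and with the skin marker sum as a covariate (0.37), in all in 9 of 23 alternatives, while the log2 fold change stayed between 1.18 and 1.70. Calls over all genes fell in these fits too. In Refed_3h vs Fast they were 264, 409, 265 and 114 in the order given, against 821 in the main fit. In Refed_8h vs Fast they were 150 to 229 without those fish and 70 with the skin sum, against 234.

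**Figure D4:**
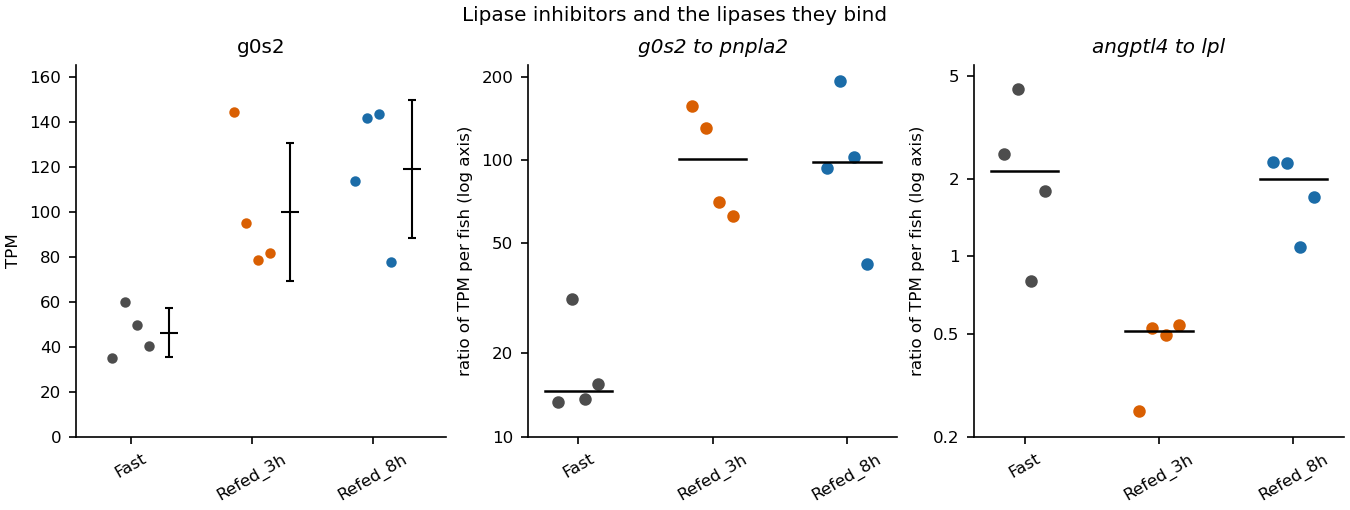
TPM of g0s2 (left, mean and SD beside the points), the ratio of g0s2 to pnpla2 (middle) and of angptl4 to lpl (right) in the fish of Fast, Refed_3h and Refed_8h; the ratios are on log axes and the bars mark medians. The g0s2 to pnpla2 ratio is at 42.1 or more in every refed fish and at 31.4 or less in every Fast fish, as follows from the separate levels of both genes. The angptl4 to lpl ratio is at 0.541 or less in the Refed_3h fish and at 0.804 or more in all others.

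Also in the lipolysis list, adrb2b, a beta-adrenergic receptor of the kind that switches lipolysis on, fell to 1.89, 1.47, 0.601 and 0.624 TPM in Refed_8h, against 4.82, 3.34, 4.23 and 4.25 TPM in Refed_3h. The groups did not overlap, and the log2 fold change of Refed_8h vs Refed_3h was -2.13 (SE 0.34, edgeR adjusted p = 0.0035), which passed in all 23 alternatives. Against Fast, with 2.31 to 4.48 TPM, the log2 fold change of Refed_8h was -1.38 (edgeR adjusted p = 0.068).

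In the list of fatty acid uptake and activation, 21 genes were tested. Acsl4a, an acyl-CoA synthetase that favours arachidonic acid in mammals, was at 12.4 ± 3.03 TPM in Refed_3h and 7.51 ± 1.76 TPM in Fast (SD, n = 4), and rose by a log2 fold change of 1.08 (SE 0.20, edgeR adjusted p = 0.011). Fabp7a, a fatty acid binding protein of the brain type, was at 28.1 ± 2.64 TPM in Refed_8h and 15.7 ± 2.92 TPM in Fast (SD, n = 4), a rise of 0.96 on the log2 scale (edgeR adjusted p = 0.0069). The paralogs acsl4b and fabp7b did not pass in the same comparisons (log2 fold change -0.18 and -0.34, edgeR adjusted p = 0.43 and 0.81). Fabp3, the binding protein of the muscle type and the most abundant gene of the list, was chosen for mention after its values were seen. It was at 704 ± 39.5, 675 ± 150 and 713 ± 114 TPM in Fast, Refed_3h and Refed_8h (SD, n = 4), and did not pass the test in any comparison.

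The other called genes of that list were lower in Refed_8h than in Refed_3h. Acsl3b had -0.90 as its log2 fold change (edgeR adjusted p = 0.0050), with 3.85 ± 0.905 TPM in Refed_8h and 6.04 ± 0.843 TPM in Refed_3h (SD, n = 4). Its paralog acsl3a had 0.41 and did not pass (edgeR adjusted p = 0.67). Scarb2a had -1.27 (edgeR adjusted p = 0.0043) and also fell in Refed_8h vs Fast, by 1.19 on the log2 scale (edgeR adjusted p = 0.011). Acbd3 had -0.58 (edgeR adjusted p = 0.018). Scarb2a encodes a lysosomal membrane protein and acbd3 a Golgi protein that binds acyl-CoA, so neither is a carrier of fatty acids into the cell.

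In the list of lipase control, with 14 tested genes, none changed in Refed_3h vs Fast. Angptl7 was at 31.8 ± 4.67 TPM in Fast, 28.0 ± 10.2 TPM in the Refed_3h fish and 12.5 ± 1.98 TPM in Refed_8h (SD, n = 4). It fell in Refed_8h by 1.38 on the log2 scale relative to Refed_3h (edgeR adjusted p = 0.0050) and by 1.22 relative to Fast (edgeR adjusted p = 0.018). Angptl1a had -0.63 as its log2 fold change in Refed_8h vs Refed_3h (edgeR adjusted p = 0.020). Its paralog angptl1b had -0.06 and did not pass (edgeR adjusted p = 0.94). Angptl7 and angptl1a belong to the angiopoietin-like family by sequence but are not known as blockers of lipoprotein lipase. Lipg, endothelial lipase, had a log2 fold change of -1.54 in Refed_8h vs Refed_3h (edgeR adjusted p = 0.046).

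In the list of droplet storage, with 21 tested genes, none changed against Fast at either time. Gpam, the acyltransferase that starts glycerolipid synthesis in mitochondria, was at 7.60 ± 1.55 TPM in Refed_8h and 13.6 ± 3.42 TPM in Refed_3h (SD, n = 4), and its log2 fold change was -1.07 (edgeR adjusted p = 0.015). Rab18a, a small GTPase found on lipid droplets, was at 13.8 ± 3.65 TPM in Refed_8h and 7.12 ± 1.38 TPM in Refed_3h (SD, n = 4), and its log2 fold change was 0.72 (edgeR adjusted p = 0.024). Its paralog rab18b had -0.27 and did not pass (edgeR adjusted p = 0.20).

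Several of these calls lay near the threshold and were lost when 1 fish was left out, with log2 fold changes of similar size. Over all genes, leaving out 1 fish gave 150 to 229 calls in Refed_8h vs Fast, against 234 with all fish. In Refed_8h vs Refed_3h it gave 459 to 1168, against 1074. The call of angptl7 in Refed_8h vs Fast was lost without Refed_8h replicate 1 or 4 (edgeR adjusted p = 0.052 and 0.072, log2 fold change -1.11 and -1.14). In Refed_8h vs Refed_3h, lipg lost its call without any 1 of 9 fish (edgeR adjusted p of 0.054 to 0.13, log2 fold change of -1.68 to -1.28; Fast replicates 1, 2 and 3, Refed_3h replicates 2, 3 and 4 and Refed_8h replicates 2, 3 and 4). Angptl1a lost it without Refed_3h replicate 1, 3 or 4 or Refed_8h replicate 4 (edgeR adjusted p of 0.050 to 0.070, log2 fold change of -0.63 to -0.55), and rab18a without Refed_3h replicate 1, 3 or 4 or Refed_8h replicate 1 (0.055 to 0.070, log2 fold change of 0.61 to 0.74). Acbd3 lost it without Refed_3h replicate 1 or Refed_8h replicate 4 (edgeR adjusted p = 0.050 and 0.064, log2 fold change -0.57 and -0.52), and gpam without Refed_8h replicate 4 (0.056, log2 fold change -0.997). With the skin marker sum as a covariate, none of the 74 genes was called in Refed_3h vs Fast and 1 was in Refed_8h vs Fast. Calls over all genes also fell with this covariate, from 821 to 114 and from 234 to 70. The skin sum itself was lower in every refed fish than in every Fast fish. With it, the edgeR adjusted p was 0.068 for acsl4a in Refed_3h vs Fast, and 0.25 for fabp7a and 0.15 for scarb2a in Refed_8h vs Fast. Limma on TPM also ended the call of acsl4a in Refed_3h vs Fast in each of its 3 fits (log2 fold change of 0.65 to 0.71, adjusted p of 0.079 to 0.12), and that of fabp7a in Refed_8h vs Fast without the filter on low values (adjusted p = 0.060). In Refed_8h vs Refed_3h, limma on log2(TPM + 1) called 4 of the 73 list genes it tested, and 682 over all genes. The calls of acsl3b (log2 fold change of -0.65 to -0.55, adjusted p of 0.093 to 0.14), acbd3, angptl1a, gpam and lipg were lost in all 3 limma fits, and that of scarb2a without the filter (adjusted p = 0.057). The calls of adrb2b and angptl7 in Refed_8h vs Refed_3h held in all 23 alternatives.

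**Figure D5:**
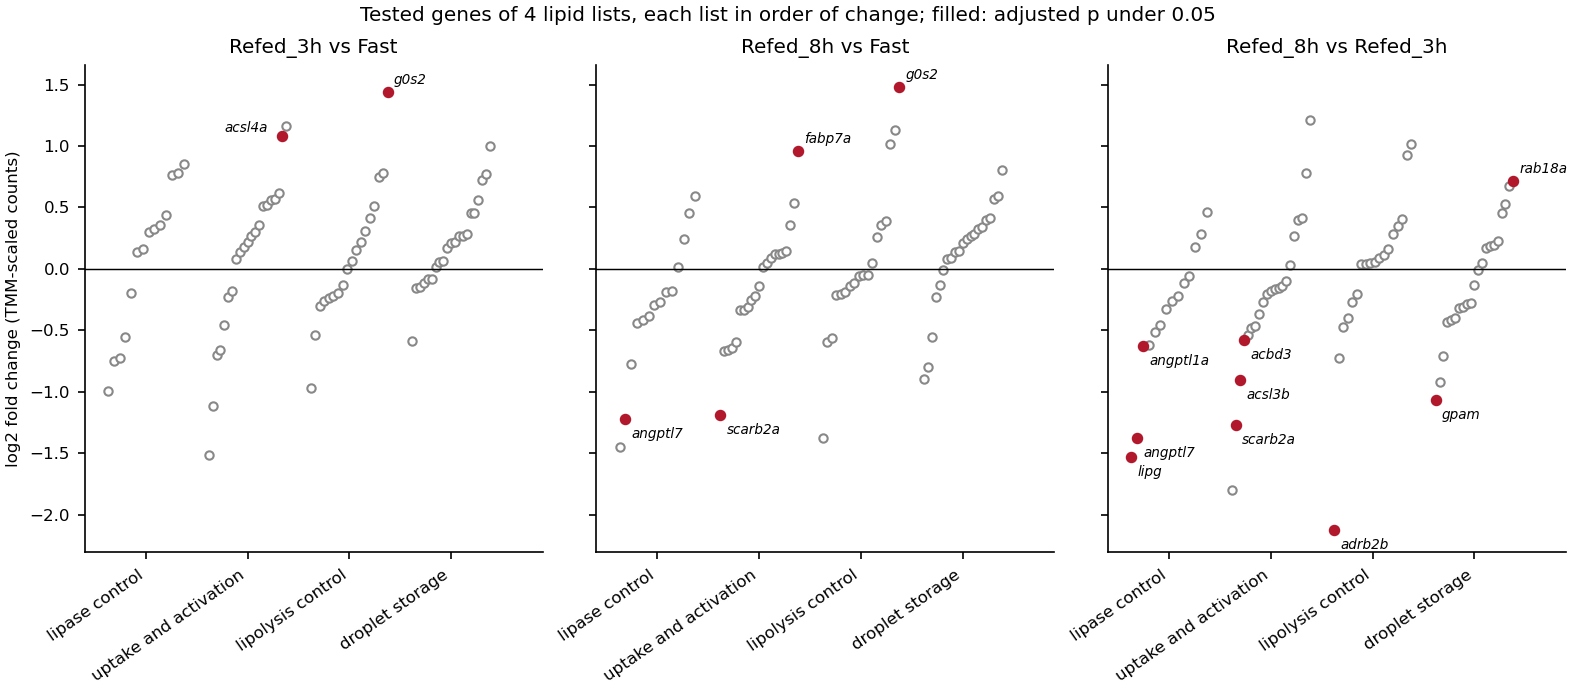
Log2 fold change of counts scaled by TMM (vertical axis) of the 74 tested genes of the lists for lipase control, fatty acid uptake and activation, control of lipolysis and droplet storage, in order of change within each list; filled red points passed an adjusted p under 0.05 and are named. G0s2 and acsl4a are the called genes in Refed_3h vs Fast, and 8 of the 9 called genes in Refed_8h vs Refed_3h lie below 0.

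Adipocytes, endothelium and macrophages in the tissue could also carry these transcripts. The 12 adipocyte markers in the table summed to 1879 to 2250 TPM in Fast, 2028 to 2640 TPM in Refed_3h fish and 2000 to 2745 TPM in Refed_8h, but rbp4 and cfd made up 79.0% of the sum. The other markers of the list differed widely in level. Cidea was at 0 in all 12 fish, plin1 at 0 in 10, and lepb at 0.889 TPM or less. Adipoqb was at 24.3 ± 4.83, 33.4 ± 16.6 and 30.3 ± 5.34 TPM in Fast, Refed_3h and Refed_8h (SD, n = 4). In the same order the means were 383, 437 and 365 TPM for fabp11a and 7.25, 7.64 and 11.7 TPM for adipoqa. Those of cidec were 2.25, 1.71 and 3.22 TPM. The 20 endothelial markers summed to 196 to 210 TPM in Fast, 125 to 152 TPM in Refed_3h fish and 184 to 209 TPM in Refed_8h. The exact permutation p was 0.029 for Refed_3h against each other group and 0.10 after adjustment over the 21 tests. Scaled by TMM, these markers had a median of -0.02 in Refed_3h vs Fast and -0.12 in Refed_8h vs Refed_3h. By edgeR 1 of the 20 fell in Refed_3h vs Fast, against 2.63% of all genes. In Refed_8h vs Refed_3h 3 of the 20 rose, against 3.06%. The 11 macrophage markers in the table summed to 173 to 255 TPM in Fast, 116 to 151 TPM in Refed_3h fish and 175 to 418 TPM in Refed_8h, with the same permutation p for Refed_3h against each other group. Scaled by TMM, the 10 tested macrophage markers had a median of -0.21 in Refed_3h vs Fast, where 0 fell, against 2.63% of all genes. In Refed_8h vs Refed_3h their median was 0.81, and 4 of the 10 rose, against 3.06% of all genes. By summed TPM, the endothelial and macrophage markers were thus lowest in the Refed_3h fish, as angptl4 was. After TMM scaling the median endothelial marker did not follow this, while the few that passed the test did. The part of these cells in the level of angptl4 was not tested.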

How the data were processed

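Muscle RNA of 12 fish was sequenced, 4 per group, and every column of values was matched to its fish by name (0 were left over). The authors mapped the reads to GRCz11 in CLC Genomics Workbench. Which annotation and strand setting they used, and what became of reads with several matches, is not stated in the sources used here. Their deposited table holds the counts of each gene as whole numbers without normalization, the authors' TPM and RPKM, and a CPM column that the authors scaled per library, a signal whose sum differs between libraries. RPKM and CPM were left out, as were the deposited fold changes, p-values and FDR of the authors' own comparisons. Symbols come from the deposited table, and 23499 of its 25281 identifiers matched a table of names.

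Counts were filtered with filterByExpr, scaled by TMM and fitted in R 4.3.3 with edgeR 4.0.16 (robust quasi-likelihood fit, all 3 groups in 1 model). Benjamini-Hochberg adjustment took in all 16745 tested genes. Standard errors were computed from the log2 fold change and its F statistic. The fit's biological coefficient of variation was 30.6%. Levels per fish are deposited TPM. Marker sums were compared with exact two-sided permutation tests. The 95% intervals and p-values cover the spread between fish only. No pair of libraries was a repeat of 1 library (chi-square per gene of 28.8 to 94.5 over 66 pairs).

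The genes, pathway lists and tests were chosen with earlier results of these data known. Named were all 10 genes; per comparison and list the 3 called genes that changed most, if their mean was 1 TPM or more, and any called in more than 1 comparison; and the 5 genes with a symbol that is no clone name and a mean of 1 TPM or more whose log2 CPM (prior count of 2) correlated best with angptl4, of which 1 is not reported here. Alternatives were RLE size factors, DESeq2 1.42.0, the 2 compared groups alone, all genes without the filter, the replicate number as a block, limma 3.58.1 on log2(TPM + 1) and log2(TPM + 0.1) for genes with a mean of 0.5 TPM or more and without that limit, adipocyte or skin marker sums as a covariate, and each library left out. Leaving out the 2 libraries of highest lpl, and the counts of genes without overlap, were added after seeing the data. Sequences were not analysed here.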

Additional observations from a re-analysis of the deposited data

Results flagged for a closer look

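Of 66 groups of 4 fish examined for the genes named, 5 had a fish whose gap to the nearest other fish passed Dixon's 95% critical value; chance gives about 1 in 20 such groups. Lpl was at 48.9 TPM in Fast replicate 3 and at 57.2 TPM in Refed_3h replicate 1, each the highest of its group. Cd36 was at 0.489 TPM in Refed_8h replicate 2, the highest of its group, on 9 counts. Gpam was at 9.91 TPM in Refed_8h replicate 3, the highest of its group. Lipg was at 2.47 TPM in Fast replicate 4, the lowest of its group.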

How the results depend on the processing

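Angptl4 was called lower in Refed_3h vs Fast in 22 of 23 alternatives (log2 fold change of -2.10 to -1.43) and higher in Refed_8h vs Refed_3h in all 23 (1.52 to 1.86). In Refed_3h vs Fast, DESeq2, the replicate block and each of the 3 limma fits called 2 of the lipid genes, angptl4 and pnpla2. DESeq2 was given all 10 and limma without its filter took in all 10, while the block, the other limma fits and the skin sum fit took in 9. With the skin marker sum as a covariate 0 were called. In Refed_8h vs Fast 1 was called by DESeq2 and with the replicate block (acsl1a). In Refed_8h vs Refed_3h 1 was called without the filter on low counts, with the 2 groups alone, by each limma fit and without Fast replicate 3 and Refed_3h replicate 1 together, and 2 passed with no fold threshold against 1 DEG. Without 1 replicate the counts were 1 to 1, 0 to 0 and 1 to 2 in the 3 comparisons. The list genes called in Refed_3h vs Fast were 9 by DESeq2, which was given the 92 in the table. Not all of these had reads, since limma without its filter, which drops genes at 0 in all fish, took in 89. The called list genes there were 4 with the replicate block and by limma with the filter on low values. They were 6 with the adipocyte sum, 0 with the skin sum and 1 without both fish, and 1 to 7 without 1 replicate. In Refed_8h vs Fast they were 8 by DESeq2, 1 with the skin sum and 2 without both fish, and 3 to 4 without 1 replicate. In Refed_8h vs Refed_3h they were 4, 4 and 3 in the limma fits, and 5 to 9 without 1 replicate. Over all genes, 114 to 1708, 70 to 654 and 459 to 1755 were called, against 821, 234 and 1074 in the main fit. In Refed_3h vs Fast, DESeq2 called 1708, the replicate block 934 and the limma fits 1241, 1333 and 782. The adipocyte sum gave 1177 there and the skin sum 114. In Refed_8h vs Fast, DESeq2 called 654, the replicate block 280 and the skin sum 70. In Refed_8h vs Refed_3h the limma fits called 682, 813 and 468. Without 1 replicate the calls were 264 to 805, 150 to 229 and 459 to 1168. The cause of these differences was not tested.

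Log2 fold changes that crossed 0 were those of genes that did not pass the test. In Refed_3h vs Fast, limma on log2(TPM + 1), with and without the filter on low values, gave -0.19 for plin2 and -0.17 for acsl1b, limma on log2(TPM + 0.1) gave -0.28 and -0.18, and the skin sum gave -0.039 and -0.069. Acsl1a was at 0.11 with the adipocyte sum and 0.051 without both fish, and lipeb at 0.16 without both fish. In Refed_8h vs Fast, lpl was at 0.0099 with the replicate block and 0.34 without both fish, lipea at 0.13 with the skin sum, and acsl1b at 0.0052 with the 2 groups alone, 0.0015 with the replicate block, 0.11 with the adipocyte sum and 0.056 without both fish. In Refed_8h vs Refed_3h, limma on log2(TPM + 1), with and without the filter, gave 0.013 for lipeb and 0.059 for acsl1b, and limma on log2(TPM + 0.1) gave 0.043 and 0.061. Without 1 replicate or both fish, the ranges that crossed 0 were, in Refed_3h vs Fast, -0.32 to 0.16 for lipeb, -0.022 to 0.37 for plin2 and -0.19 to 0.051 for acsl1a; in Refed_8h vs Fast, -0.42 to 0.17 for angptl4, -0.22 to 0.34 for lpl and -0.18 to 0.073 for acsl1b; and in Refed_8h vs Refed_3h, -0.12 to 0.31 for pnpla2, -0.48 to 0.049 for lipeb and -0.064 to 0.16 for mgll. Lpl in Refed_3h vs Fast ranged from 0.05 to 0.84.

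The replicate numbers were not taken to pair the fish, since the labels tie no number to a shared tank or day and not every same-numbered pair deviated together: over 12 such pairs the correlation of deviations from the group means was -0.19 to 0.27, with 7 pairs over 0.1. For 8 of 12 libraries the closest library of the other groups had their own number, and for 5 this held in both other groups. The numbers may thus carry some structure that the main model leaves out, and its source was not tested. The sex of each fish is not given in the sources used here, so sex was not in the model and its part was not tested. With the replicate block the call of g0s2 in Refed_8h vs Fast (adjusted p = 0.054) and that of lipg in Refed_8h vs Refed_3h (0.081) were also lost. Depth limits cd36, with 2 to 9 counts per fish, and widens the intervals of pnpla2, lipea, lipeb and plin2.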
